A study of Mus musculus with 4 samples.

Results

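The genes described here encode 5 sialyltransferases (St3gal1, St3gal3, St3gal4, St3gal6 and St6gal1) and 3 fucosyltransferases (Fut2, Fut4 and Fut8), 8 of the 22632 rows of a gene expression table of mouse small intestinal organoids. They were taken by symbol, each with 1 row. The set was selected on measured values, namely RPKM levels in all 4 libraries and the ratios of Yap-/- over Yap+/-, of YapTg with over without doxycycline and of Yap+/- over YapTg without doxycycline, so all values below are descriptions. Organoids are epithelial cultures grown in Matrigel from crypts; these were grown with Egf, Noggin and human Rsp1 and harvested 24 hours after seeding. There were 4 groups with 1 RNA-seq library each, and without replicates no test was made. The Yap+/- library came from Yap+/fl;VillinCre mice and the Yap-/- library from Yapfl/fl;VillinCre mice, in which Cre under the Villin promoter removes floxed Yap from the intestinal epithelium; both carry the Cre. YapTg organoids carry a wild-type Yap transgene that doxycycline switches on through a reverse tetracycline transactivator whose expression depends on Cre; they were kept without the drug or given it at 1.5 mg/ml from seeding. No library had doxycycline without the transgene, so drug and transgene cannot be told apart. The strain, the age and the number of animals behind each culture, and the Cre line used in YapTg, are details not given in the sources used here.

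Sialic acid and fucose are usually the last sugars added to the glycans of mucins, membrane proteins and glycolipids in the Golgi, and in the intestine they shape the mucus and the glycocalyx that bacteria and toxins bind. The St3gal enzymes join sialic acid to the third carbon of a terminal galactose, St6gal1 to the sixth. St3gal4 and St3gal6 act mainly on galactose of N-acetyllactosamine, and St3gal1 on the galactose of short O-glycans. Fut2 makes the H antigen on secreted and surface glycans, Fut4 makes Lewis-type structures, and Fut8 puts fucose on the innermost N-acetylglucosamine of N-glycans.

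St3gal4 and St3gal6, the most abundant sialyltransferase genes in these libraries, are shown by the 250 bases before their annotated starts, from RefSeq on GRCm38.p6. Capitals mark a GC box (GGGCGG, or CCGCCC on the other strand) or the TEAD motif (GGAATG, or CATTCC on the other strand), the letters that the DNA-binding partners of YAP recognise. The first window is chr9:35116865-35117114 (minus strand), the next chr16:58524254-58524503 (minus strand) and the last chr16:58523427-58523676 (minus strand).
St3gal4: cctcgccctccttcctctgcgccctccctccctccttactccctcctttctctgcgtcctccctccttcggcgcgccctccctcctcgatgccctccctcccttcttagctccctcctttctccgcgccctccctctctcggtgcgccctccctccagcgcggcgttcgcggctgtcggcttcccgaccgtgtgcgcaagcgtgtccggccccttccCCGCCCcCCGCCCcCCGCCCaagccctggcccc
St3gal6, upstream start: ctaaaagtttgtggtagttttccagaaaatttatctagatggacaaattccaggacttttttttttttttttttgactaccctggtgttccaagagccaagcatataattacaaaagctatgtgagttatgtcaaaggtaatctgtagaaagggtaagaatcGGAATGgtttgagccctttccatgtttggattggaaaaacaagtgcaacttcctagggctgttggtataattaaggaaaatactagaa
St3gal6, downstream start: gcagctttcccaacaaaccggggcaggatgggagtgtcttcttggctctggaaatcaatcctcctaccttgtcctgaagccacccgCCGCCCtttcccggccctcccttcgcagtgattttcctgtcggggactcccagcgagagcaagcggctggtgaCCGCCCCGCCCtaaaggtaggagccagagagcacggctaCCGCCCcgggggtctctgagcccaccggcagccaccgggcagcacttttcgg
The St3gal4 window was 72.8% G and C, held 3 GC boxes and had no TEAD motif. The upstream St3gal6 start was 34.8% G and C and held 1 TEAD motif and 0 GC boxes. The downstream St3gal6 start was 64.4% G and C and held 4 GC boxes, of which a pair shares bases. Over all 32851 RefSeq windows of this length 12.6% held the TEAD motif and 32.7% a GC box. The table matched 6 of the 8 genes with 12 windows, all but St3gal1 and Fut2, and 1 of the 12 held the TEAD motif. A match is a description of letters only, and the deposited values do not say which start was used.

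St3gal4 was the most abundant sialyltransferase gene in every library. Its level was 52.2 RPKM (reads divided by gene length and by the library total) in Yap+/-, 230 in Yap-/-, 117 in YapTg without doxycycline and 69.7 in YapTg with doxycycline. The Yap-/- library was highest and the Yap+/- library lowest, with both YapTg libraries between them. The fold of Yap-/- over Yap+/- was 4.42 (95% counting interval 4.25 to 4.59). With a pseudocount of 1 the log2 ratio was 2.12, the highest of the 10710 genes that reached 1 RPKM in either library. The direction was the opposite with induced Yap: the level with doxycycline was 1.68-fold lower than without (interval 1.62 to 1.75), short of 2-fold. The reference pair differed too, since Yap+/- was 2.24-fold lower than uninduced YapTg (2.15 to 2.35), although neither culture had lost Yap fully or been induced; after median-ratio scaling this difference was at a log2 ratio of -0.999 and just missed 2-fold. Set beside uninduced YapTg, the Yap-/- library was 1.97-fold higher (1.91 to 2.03). All 3 neighbouring steps in the order of libraries, the smallest being the 1.34-fold step from Yap+/- to induced YapTg (1.277 to 1.397), had intervals without 1. These intervals hold counting error only, from reads that numbered at least 6026, 31663, 10677 and 10638 in the order given above.

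**Figure D1:**
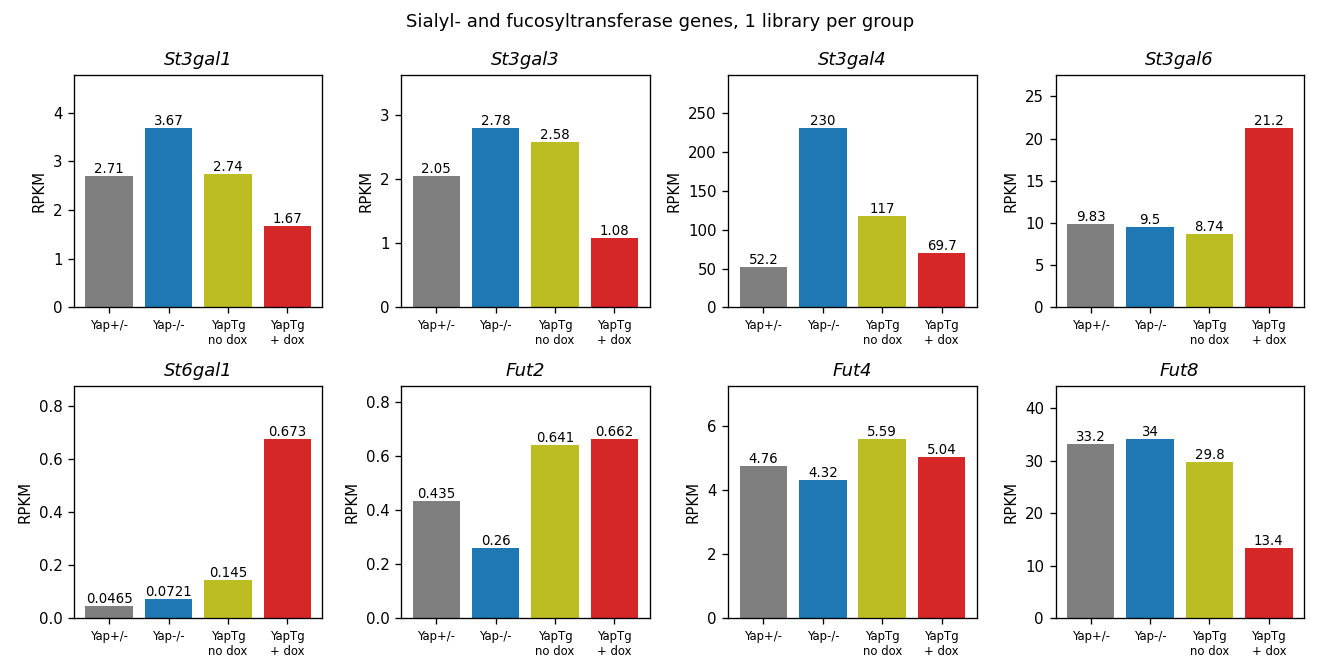
RPKM (vertical axes, from 0, each panel with its own scale) of the 8 genes in the 4 libraries, 1 bar per library with its value above. St3gal4 ranges from 52.2 to 230, St3gal6 and St6gal1 are highest with doxycycline, and Fut8, St3gal1 and St3gal3 are lowest there.

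Yap1 itself, the check of the labels, was at 16.7 RPKM in Yap+/-, 3.35 in Yap-/-, 25.1 in YapTg without and 1039 with doxycycline. Its order of libraries, from Yap-/- up to induced YapTg, was not the reverse of the St3gal4 order: Yap+/- had less Yap1 than uninduced YapTg and also less St3gal4.

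A gene is counted as higher or lower here when RPKM plus 1 differed at least 2-fold and 1 of the pair of libraries was at 1 RPKM or more. Of the 8 genes, 6 reached that level in each comparison, and St6gal1 and Fut2 did not in any library. In Yap-/- over Yap+/- 1 of the 6, St3gal4, was higher and 0 were lower, where 0.336% of all 10710 genes were higher and 0.57% lower. With over without doxycycline 1 was higher (St3gal6) and 1 lower (Fut8), where 5.85% of 11108 genes were higher and 5.8% lower; neither gene reached 2-fold with a pseudocount of 5. In Yap+/- over uninduced YapTg 1 was lower (St3gal4) and 0 higher, where 0.726% of 10883 genes were lower and 1.11% higher. The median log2 ratio of the 6 genes was 0.17 for Yap-/- over Yap+/-, -0.62 with doxycycline and -0.10 for the reference pair. Over all genes it was 0.05, -0.04 and -0.11. The set was chosen with these ratios known, so nothing is read from the counts. The comparison of Yap-/- with Yap+/- and the reference pair share the Yap+/- library, and the doxycycline comparison shares the uninduced library with the reference pair.

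**Figure D2:**
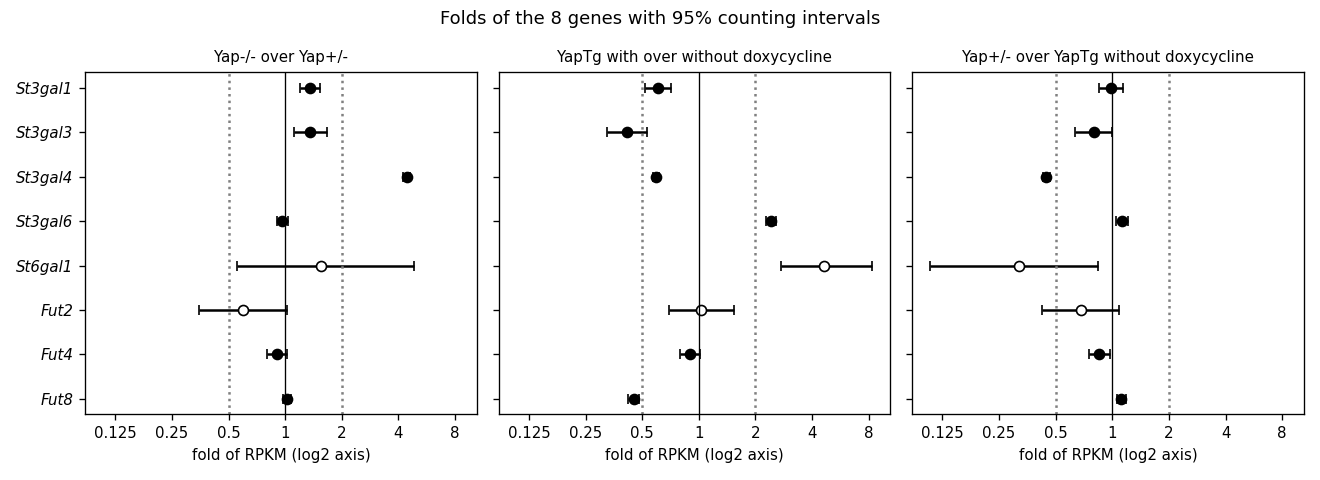
Fold of RPKM (horizontal, log2 axis) for the 8 genes in each of the 3 comparisons, with 95% counting intervals; open circles are genes under 1 RPKM in both libraries and dotted lines mark 2-fold. St3gal4 stands at 4.42 in the left panel and below 1 in both others.

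St3gal6 had the opposite pattern with doxycycline. It was at 9.83 RPKM in Yap+/-, 9.50 in Yap-/-, 8.74 in YapTg without and 21.2 with doxycycline. The 3 libraries without induced Yap lay close together and the induced library stood apart, 2.42-fold above uninduced YapTg (2.27 to 2.58). Small differences separated among the 3: Yap+/- was 1.12-fold (1.04 to 1.21) and Yap-/- 1.09-fold (1.01 to 1.17) above uninduced YapTg. Yap-/- and Yap+/- could not be separated (fold 0.967, interval 0.905 to 1.03). In the GENCODE M21 annotation St3gal6 shares 1603 exon bases with Dcbld2, and whether the counting used strand is not given in the sources used here. Dcbld2 was low, at 0.623, 0.512, 0.456 and 0.851 RPKM in the same order. With doxycycline St3gal6 was thus higher and St3gal4 lower, and their levels lay closer together. On the RPKM scale St3gal4 was 13.4 times St3gal6 in uninduced YapTg and 3.29 times in induced YapTg.

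St3gal1 and St3gal3, which act on O-glycans and on N-glycan or glycolipid chains, were low and shared an order of libraries. St3gal1 was at 2.71 RPKM in Yap+/-, 3.67 in Yap-/-, 2.74 in YapTg without and 1.67 with doxycycline. St3gal3 was at 2.05, 2.78, 2.58 and 1.08 RPKM. For each the Yap-/- library was highest and the induced library lowest. Yap-/- over Yap+/- was 1.36-fold for St3gal1 (1.20 to 1.54) and also 1.36-fold for St3gal3 (1.11 to 1.66). Both differences were short of 2-fold. With doxycycline St3gal1 was 1.65-fold lower (1.41 to 1.92) and St3gal3 2.40-fold lower (1.87 to 3.08). St3gal3 does not count as past 2-fold because the pseudocount brings its log2 ratio to -0.79 at this low level. Between Yap+/- and uninduced YapTg, St3gal1 did not separate (1.01-fold lower, 0.874 to 1.17, with the sign turned under both other scalings), and neither did St3gal3 between Yap-/- and uninduced YapTg (1.08-fold, 0.883 to 1.32).

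St6gal1, the enzyme of the other linkage, was the lowest of the 8 genes in every library but the induced one, where Fut2 was slightly lower. Its level was 0.0465 RPKM in Yap+/-, 0.0721 in Yap-/-, 0.145 in YapTg without and 0.673 with doxycycline, from at least 13, 24, 32 and 249 reads. The induced library was 4.65-fold above the uninduced one (2.75 to 8.38). The steps from Yap+/- to Yap-/- and from there to uninduced YapTg had intervals that include 1, but Yap+/- was 3.12-fold below uninduced YapTg (1.19 to 9.31). An overlapping gene, BC106179, was listed at 0 except for 0.0644 RPKM with doxycycline.

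Fut8 was the main fucosyltransferase gene in all 4 libraries. It was at 33.2 RPKM in Yap+/-, 34.0 in Yap-/-, 29.8 in YapTg without and 13.4 with doxycycline. The induced library stood furthest apart, 2.22-fold below uninduced YapTg (2.09 to 2.37). Yap+/- was 1.12-fold above uninduced YapTg (1.06 to 1.18). The Yap-/- library was 1.02-fold above the Yap+/- library (0.977 to 1.07), a difference whose sign turned under both other scalings.

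Fut4 varied least of the 8 genes between its highest and lowest library, at 4.76, 4.32, 5.59 and 5.04 RPKM in the same order. No neighbouring step in its order of libraries had an interval without 1. Yap-/- was below Yap+/- by 1.10-fold (0.974 to 1.25), and induced below uninduced YapTg by 1.11-fold (0.985 to 1.25). Yap+/- was below uninduced YapTg by 1.18-fold (1.03 to 1.34). Fut2 stayed below 1 RPKM, at 0.435, 0.260, 0.641 and 0.662. From at least 73, 52, 85 and 147 reads, no neighbouring step of Fut2 separated either, and Yap-/- was 1.67-fold below Yap+/- with an interval of 0.983 to 2.88.

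Relative to its family, St3gal4 carried 72.0% of the summed RPKM of 20 listed sialyltransferase genes in Yap+/-, 91.1% in Yap-/-, 83.3% in YapTg without and 68.6% with doxycycline. St3gal6 came next, with 13.6%, 3.75%, 6.22% and 20.9%. The family sum was 72.5, 253, 141 and 102 RPKM, and without St3gal4 it was 20.28, 22.6, 23.5 and 31.9 RPKM. The large differences in the sum were thus those of 1 gene. Of these 20 genes, 5 reached 1 RPKM in each of the first 3 libraries and 6 with doxycycline. Fut8 carried 60.1%, 60.7%, 55.7% and 34.2% of the summed RPKM of 10 listed fucosyltransferase genes. Without Fut8 that sum was 22.02, 22.02, 23.7 and 25.8 RPKM, so the lower family sum with doxycycline, 39.2 against 53.4 RPKM, lay in Fut8.

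The 5 genes whose profiles over the 4 libraries were most like that of St3gal4 were Nox1, Defa3, Ang4, Rps28 and Itln1. Likeness was the Euclidean distance between profiles of log2 RPKM plus 1, each centred on its mean, among 7401 genes at 5 RPKM or more. Predicted genes (symbols with Gm and digits, Rik or LOC) were left out, so the ranking holds for the other genes only. The 5 distances ran from 0.686 to 0.900, against 1.61 for a flat profile. Nox1 encodes a superoxide-producing oxidase of the crypt epithelium and Rps28 a ribosomal protein, while Defa3, Ang4 and Itln1 are products of Paneth cells, the antimicrobial cells of the crypt base. Nox1 was at 2.61 RPKM in Yap+/-, 9.22 in Yap-/-, 5.21 in YapTg without and 1.51 with doxycycline. Ang4 was at 220, 482, 414 and 193 RPKM, Defa3, which has near-identical copies, at 106, 315, 289 and 187, and Itln1 at 511, 1119, 1192 and 711. Itln1 was highest in uninduced YapTg, and St3gal4 and the others in Yap-/-. With 4 libraries such likeness is a description and no test. For Fut2 the 3 closest were C1galt1, Shq1 and Sft2d2, and for St6gal1 Mitd1, Wasf2 and Pcdh1, but the pseudocount flattens these genes below 1 RPKM.

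**Figure D3:**
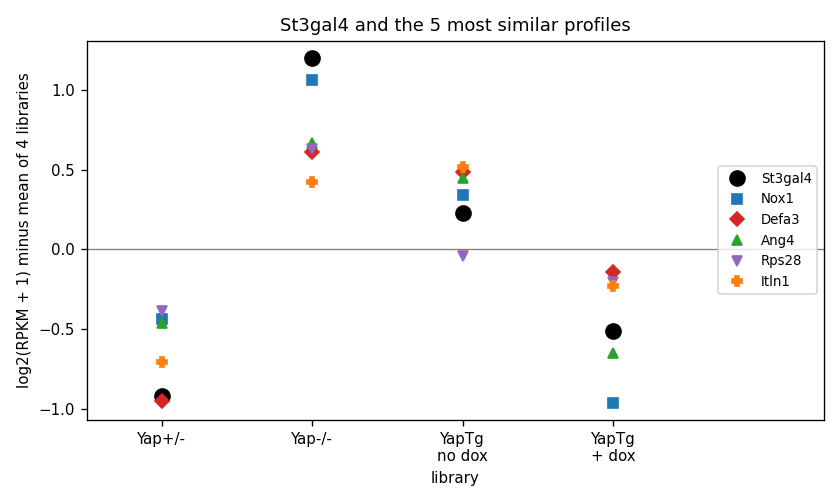
Level of St3gal4 and of the 5 genes with the most similar profile, as log2 of RPKM plus 1 minus the mean of the 4 libraries (vertical), in each library (horizontal). All 6 genes are below their mean in Yap+/- and with doxycycline and above it in Yap-/-; Rps28 is the exception in uninduced YapTg, where it lies just below its mean.

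Markers of cell types also differed between the libraries. In Yap-/- over Yap+/- all 5 fetal-like markers were lower by 2-fold or more, and St3gal6 was at 0.967-fold. The summed level of Paneth cell markers was highest in uninduced YapTg. Of these markers Ang4 was highest in Yap-/-, like St3gal4, and Lyz1, Itln1, Mmp7, Defa24 and Dll4 in uninduced YapTg. All 6 listed Paneth cell markers were higher in Yap-/- than in Yap+/- (median log2 ratio 0.97, 3 past 2-fold), and all 6 were lower in Yap+/- than in uninduced YapTg (median -1.07). Their summed level was 4744 RPKM in Yap+/-, 9475 in Yap-/-, 11724 in YapTg without and 7726 with doxycycline. With doxycycline, 5 of 8 enterocyte, 7 of 7 goblet cell, 4 of 5 stem cell and 4 of 5 enteroendocrine markers were lower by 2-fold or more. All 6 Paneth cell markers were lower, 2 of them past 2-fold. Of the tuft cell markers 1 reached 1 RPKM and was lower, short of 2-fold. St3gal4, Fut8, St3gal1 and St3gal3 were lower in this comparison as well. In contrast 4 of 5 fetal-like markers were higher by 2-fold or more, beside the higher St3gal6 and St6gal1. The summed enterocyte level was 7523, 10546, 4629 and 1379 RPKM in the order of libraries used above, the goblet level 2049, 2665, 2107 and 518, the stem cell level 308, 579, 521 and 53.6, and the fetal-like level 42.5, 10.4, 45.3 and 859. All 7 epithelial markers were above 1 RPKM in every library, with sums of 2747, 2329, 2381 and 6076 RPKM. With doxycycline 3 of the 7 were higher by 2-fold or more and 0 lower (median 0.72), the keratin genes Krt8, Krt18 and Krt19. Cdh1 was higher short of 2-fold, at 170 RPKM without and 280 with doxycycline. Epcam (335 to 394 RPKM), Vil1 (208 to 229 RPKM) and Cdx2 (62.5 to 76.0 RPKM) varied less over the 4 libraries. Of 8 stromal markers Col3a1 and Dcn were at 0 in all 4 libraries and the sum was 0.489 to 3.61 RPKM, of 7 immune markers 0 were at 0 throughout and the sum was 3.83 to 7.72 RPKM, and of 3 endothelial markers Cdh5 was at 0 and the sum was 0.0776 to 0.157 RPKM. Fewer cells of a type and less RNA per cell cannot be told apart in whole cultures, and the part of cell composition in the differences of the 8 genes was not tested.

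St3gal4 and Fut4 lie on chromosome 9, as does Yap1, the gene that was targeted in the Yap-/- mice. In the order of GENCODE M21 genes at 1 RPKM or more in any library, 8 genes lie between Yap1 and Fut4 and 92 between Yap1 and St3gal4. Of the 10 nearest such genes around St3gal4, 1 was past 2-fold in Yap-/- over Yap+/-. It was Tmem45b, the fourth gene to the side of Yap1, at 33.5 RPKM in Yap+/-, 77.4 in Yap-/-, 88.9 in YapTg without and 46.0 with doxycycline (log2 ratio 1.18). The other 9 had log2 ratios from -0.16 to 0.30, among them the direct neighbours Ets1 (-0.10) and Dcps (0.20). None of the 10 nearest genes around Yap1 (-0.16 to 0.60) or around Fut4 (-0.34 to 0.15) was past 2-fold. On chromosome 9 as a whole 1.01% of 597 genes were past 2-fold in this comparison, against 0.819% of 9892 genes on all other chromosomes. The 6 genes were St3gal4, Tmem45b and Ostb, which were higher, and Yap1, Cyp1a1 and Lars2, which were lower; Ostb, Cyp1a1 and Lars2 were named after their values were seen. Exons of St3gal4 share 412 bases with exons of 4930581F22Rik, a gene without a row among the deposited values, so its level cannot be given. Whether DNA linked to the targeted allele differs between the mice was not tested.

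**Figure D4:**
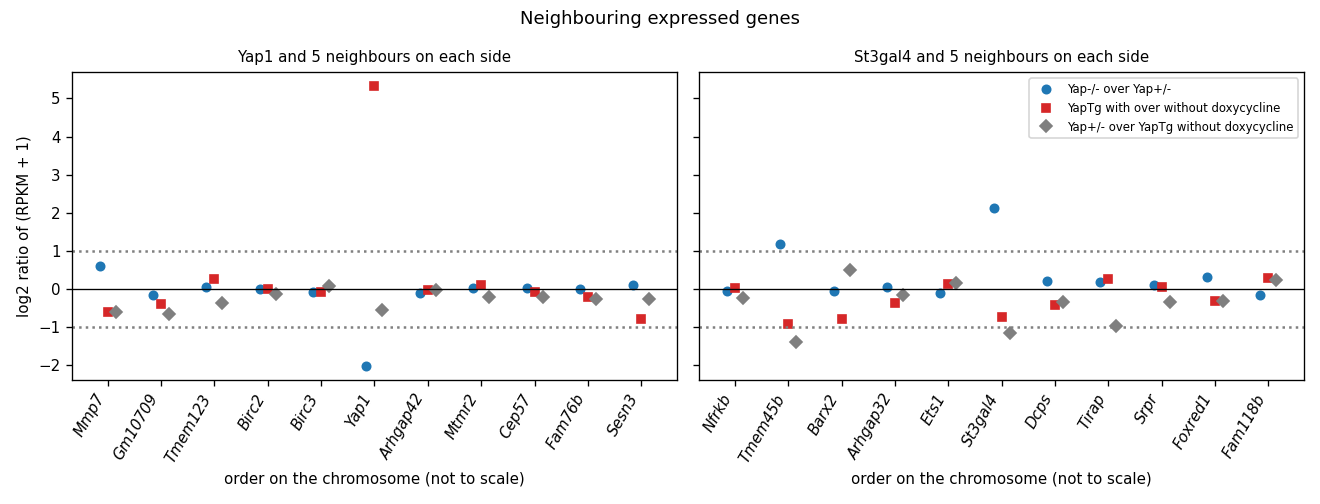
Log2 ratio of RPKM plus 1 (vertical) for Yap1 (left) and St3gal4 (right) with the 5 nearest genes at 1 RPKM or more on each side, in chromosome order and not to scale; dotted lines mark 2-fold. In Yap-/- over Yap+/- St3gal4 (2.12) and Tmem45b (1.18) lie above the upper line.

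The other glycosylation genes had shares past 2-fold, on the scale of RPKM plus 1, near those of all genes. A total of 83 further genes were placed in 9 lists by role. In Yap-/- over Yap+/- 52 rows reached 1 RPKM, 34 of them were higher, 18 lower and 0 past 2-fold (all genes: 0.336% higher, 0.57% lower), with a median log2 ratio of 0.07. The median over all genes was 0.05. Only 35.7% of all genes lay below the log2 ratio of Gcnt2 (0.005), so most genes were slightly higher too. The enzymes that supply the sialyltransferases with activated sialic acid had a median of 0.14 over 4 genes, with Gne, the first enzyme of sialic acid synthesis, at 8.99 and 10.997 RPKM and the Golgi carrier Slc35a1 at 10.99 and 12.3 RPKM. The GDP-fucose genes had a median of 0.14 over 6 genes, led by Slc35c2 at 1.19-fold and the synthase gene Tsta3 at 1.14-fold. The medians were 0.15 for the other sialyltransferases (1 gene, St6galnac2) and 0.06 for the other fucosyltransferases (3 genes, Fut11 furthest from 0 at 1.13-fold). They were -0.03 for sialidases and fucosidases, 0.03 for the acceptor chain transferases and 0.17 for N-glycan branching. They were -0.23 for the other terminal sugars and 0.11 for the initiation of O-glycans. Galnt11, which starts O-glycans, was furthest from 0, with 2.79 RPKM in Yap+/-, 6.47 in Yap-/-, 7.004 in YapTg without and 5.06 with doxycycline. Its RPKM was 2.32-fold higher in Yap-/- than in Yap+/- (1.999 to 2.70), and the pseudocount brings the log2 ratio to 0.98, just short of 2-fold. Like St3gal4 it was lowest in Yap+/-. In the reference pair 1 of 52 was past 2-fold, Galnt11, which was lower (all genes: 0.726% lower, 1.11% higher). The list medians there ran from -0.69 (St6galnac2 alone) to 0.10, beside -0.11 over all genes.

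With doxycycline 54 of these rows reached 1 RPKM, 38 were lower and 16 higher, 4 and 3 of them past 2-fold (all genes: 5.8% lower, 5.85% higher), with a median of -0.26. The median over all genes was -0.04, and 55.2% of all genes lay below the log2 ratio of Fut11 (0.007). Ggta1, which caps galactose with a further alpha-linked galactose and so uses acceptors that sialyltransferases also use, was at 0.0662 RPKM without and 22.8 with doxycycline, 344-fold higher (167 to 857, from at least 14 and 8077 reads). Gcnt1, which branches O-glycans, was at 0.377 and 22.98 RPKM, 60.9-fold higher (44.6 to 85.3), while Gcnt4, with the same kind of activity, was 3.19-fold lower (2.97 to 3.42). Neu1, the lysosomal sialidase, was 3.70-fold higher (3.40 to 4.04), and Neu3, a sialidase of the plasma membrane, was 7.50-fold lower (5.59 to 10.2). Sialic acid is removed by both. The O-glycan starters Galnt12 and Galnt7 were 2.88-fold and 2.54-fold lower. Gmds, the first enzyme of GDP-fucose synthesis, was at 121 RPKM without and 64.9 with doxycycline, beside the lower Fut8. The sialic acid supply differed less, with Gne 1.26-fold and Slc35a1 1.20-fold lower. Medians were 0.09 for the other sialyltransferases (St6galnac4 3.37-fold higher, St6galnac2 1.56-fold lower) and 0.01 for the other fucosyltransferases (Pofut2 1.31-fold higher). They were -0.20 for the sialic acid supply, -0.26 for the GDP-fucose supply and -0.60 for sialidases and fucosidases. The acceptor chain transferases had a median of 0.01. N-glycan branching stood at -0.44, with Mgat3 2.07-fold and Mgat4a 1.70-fold lower. Mgat3 and St6galnac4 do not count as past 2-fold, because the pseudocount brings their log2 ratios to -0.96 and 0.73. The other terminal sugars stood at -0.41 and the starters of O-glycans at -0.48.

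**Figure D5:**
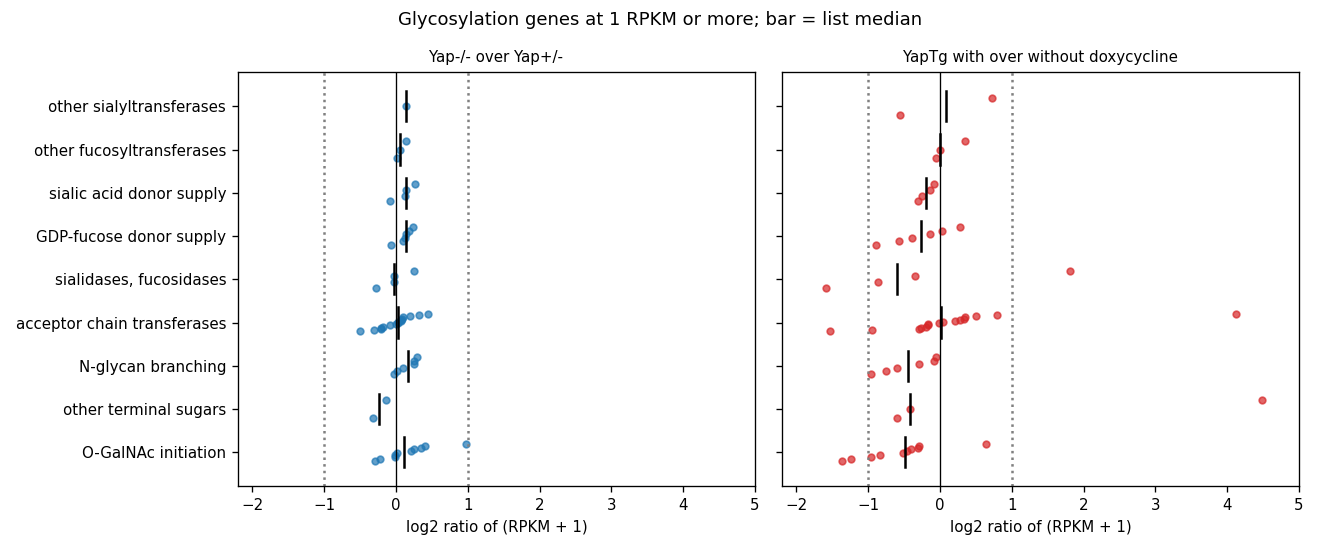
Log2 ratio of RPKM plus 1 (horizontal) of each listed gene at 1 RPKM or more (points) and the median of its list (bars), for Yap-/- over Yap+/- (left) and YapTg with over without doxycycline (right). On the left 0 points pass the dotted 2-fold lines; on the right Gcnt1 (4.12) and Ggta1 (4.48) lie far above.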

How the data were processed

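RNA-seq was done on 4 organoid cultures, 1 per group, grouped by genotype and title. Per the submitters' processing notes, CASAVA 1.8, FastQC and TopHat 1.4.1 were used with the mm9 build; the read counter, annotation and strand setting were not given in the sources used here. No header names the unit of the deposited values; they behave as RPKM computed by the authors, and all 4 columns were used. The 8 genes and all lists were chosen with earlier results of these data known.

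Library totals were solved from the deposited RPKM and GENCODE M21 gene lengths, and came to 56926423 (Yap+/-), 67716822 (Yap-/-), 44934170 (YapTg without doxycycline) and 75269003 reads (YapTg with doxycycline). For each gene the shortest length that makes the reads of all 4 libraries whole (within 0.02) was taken, so reads are lower limits. In each library genes with 2 reads outnumbered genes with 1 read (349 against 106 in Yap+/-), as when both reads of a pair are counted. Exact (Clopper-Pearson) 95% intervals of a fold were therefore computed on reads divided by 2; they cover counting error only. The method was tried on simulated read pairs, only for genes whose annotated length gave whole reads, with intervals taken from the simulated counts. Genes such as St3gal4, with a fitted length of 2029 against 2923 annotated bases, were outside that trial. Folds are ratios of RPKM; log2 ratios use a pseudocount of 1, which understates differences of low genes. No test was made. Named genes are the 8 genes, Yap1, the closest profiles, the neighbours of St3gal4 and, from each list, the genes furthest from 0; not all of the last are printed. Coordinates are printed only for RefSeq promoter windows on GRCm38.p6. Python 3.11.15, scipy 1.17.1 and matplotlib 3.10.9 were used.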

Additional observations from a re-analysis of the deposited data

How the results depend on the processing

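No paired analysis was possible because each group had 1 library and the labels give no replicate numbers. Of 114 values under other settings 92 stayed close to the reported ones, and 22 moved; a list median counted as moved past 0.1. Among these 114 values, direction changed only for the median of all listed genes in the reference pair, which was -0.02 as reported, 0.11 with median-ratio and 0.07 with upper-quartile scaling. The St3gal4 log2 ratio of Yap-/- over Yap+/- was 2.04 with a pseudocount of 5. In the reference pair it was -0.999 with median-ratio and -1.04 with upper-quartile scaling, which left 0 of the 8 genes past 2-fold lower under the former. Median-ratio scaling shifted the median of all genes in that pair by 0.13; relative to the median of all genes St3gal4 was at -1.04 as deposited and -1.02 after it. Median-ratio scaling also made the split of all genes there 173 higher and 60 lower, against 121 and 79 as deposited. St3gal1 in that pair turned from -0.01 to 0.10 and Fut8 in Yap-/- over Yap+/- from 0.03 to -0.01.

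With doxycycline 0 of the 8 genes were past 2-fold higher and 0 lower with a pseudocount of 5, and likewise at a 4-fold threshold; 2 were lower with a pseudocount of 0.1, which adds St3gal3. At the 4-fold threshold 0 were lower in the reference pair. Where an interval without 1 replaced 2-fold and the floor of 1 RPKM was kept, 3 genes were higher in Yap-/- over Yap+/-. Under this rule 1 was higher and 4 lower with doxycycline, and 2 were higher and 3 lower in the reference pair. St6gal1 was below the floor and is not counted, although its intervals with doxycycline and in the reference pair were without 1. Shares of all genes under the other pseudocounts, the 4-fold threshold and the interval rule are not given here. Nothing is therefore read from the counts of this paragraph. Of the listed genes, 1 was past 2-fold higher in Yap-/- over Yap+/- with a pseudocount of 0.1. With doxycycline 7 were lower with a pseudocount of 0.1 and 1 with 5, and without a floor their median was -0.056. In the reference pair 0 were lower with a pseudocount of 5 or either scaling. Depth limits St6gal1 and Fut2 most, with as few as 13 and 52 reads.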
